A study of Mus musculus with 12 samples.

Results

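The myosin light chain genes Myl1, Myl2, Myl3, Myl4, Myl6, Myl6b, Myl9 and Mylpf were followed across 12 single-colour Agilent arrays of C2C12 cells, an established mouse myoblast line. Members were all probes whose accession in the array files belongs to 1 of these 8 genes, which gave 10 probes of the 39429 on the array, and 8 genes of 32451 distinct gene names. Myl1 and Myl6 had 2 probes each and the other members 1. All 8 genes passed the filter on dim probes, which kept a probe where 3 of 3 arrays of some group were well above background, and Myl2 passed it only through the plasmid groups.

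RNA was taken 72 h after transfection from 4 groups of 3 arrays: cells labelled as the negative control, cells given the plasmid pcDNA3.1, cells given pcDNA3.1-MEG3 (labelled as overexpression of the long noncoding RNA MEG3) and cells given an siRNA (labelled as MEG3 knockdown). The labels give neither the siRNA's sequence, the species of the MEG3 insert nor what the negative control received, and the titles call the pcDNA3.1 arrays by another name, pat1. All 4 groups share the line, the serum-containing growth medium and the time, and no label describes the replicates as separate cultures, so the p-values rest on a spread that could be purely technical. The study compared overexpression with its plasmid and knockdown with a control. Both plasmid groups against the other arrays are further contrasts that the same 4 groups allow.

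Myosin II is built of a pair of heavy chains, and around the neck of each head wrap 1 essential and 1 regulatory light chain that stiffen the lever arm. Myoblasts carry mainly the non-muscle and smooth muscle forms, and they switch on the sarcomeric forms as they leave the cell cycle and fuse into myotubes. Among the members, Myl1 encodes the essential chain of fast skeletal fibres, Myl3 that of slow fibres and ventricle, and Myl4 that of embryonic muscle and atrium. Myl6 encodes the essential chain of smooth and non-muscle cells, and Myl6b a further essential chain. Mylpf and Myl2 encode the regulatory chains of fast and of slow or ventricular muscle. Myl9 encodes a regulatory chain of smooth muscle and non-muscle myosin, which myosin light chain kinase phosphorylates to start contraction. Myl6 and Myl6b are neighbours on the same strand of chromosome 10 in the RefSeq annotation.

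The label check came first. The brightest Meg3 probe averaged -2.43 ± 0.07 (SD, n = 2, in log2 units relative to each array's 75th percentile) in the group labelled pcDNA3.1, where all 3 arrays were well above background. In the group labelled pcDNA3.1-MEG3 the Meg3 mean was -7.17 ± 0.84, with 0 of 3 arrays above background. Means were -6.69 ± 0.31 in the negative control, with 1 of 3 above, and -7.31 ± 0.61 in the siRNA group, with 0 of 3. This goes against the labels of the plasmid groups, so every direction that involves them below is a direction between arrays labelled that way. With Meg3 at background on 2 of 3 negative control arrays, these probes could not check the knockdown, and whether they match the plasmid's insert was not tested.

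Between 62.0% and 75.9% of probes were well above background on an array, lowest on the siRNA arrays (62.0% to 68.6%), and no spot was saturated. The 75th percentile of the signal ran from 1168 to 2266, the highest on negative control replicate 2 and no more than 1601 elsewhere. Replicates 1 and 3 of the siRNA group and of each plasmid group lay at the same array position number in different scans, and their differences were 0.117 to 0.227 of those expected from spot noise. Negative control replicates 1 and 3 lay at different positions and differed by 0.763 of the spot noise. Replicates 1 and 3 were counted as 1 sample in every group, which leaves n = 2 per group. In the plasmid groups replicate 2 also differed from them by less than the spot noise. Its ratios were 0.695 and 0.713 for pcDNA3.1-MEG3 and 0.832 and 0.849 for pcDNA3.1. Replicate 2 was still kept as a separate sample there, so n = 2 in the plasmid groups rests on that choice. The negative control was scanned alone, and so was the siRNA group: for their comparison, scan and group cannot be told apart. The arrays labelled pcDNA3.1 and pcDNA3.1-MEG3 shared both of their scans.

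Promoter sequence is given for the members called at their brightest probe in at least 1 contrast whose window, the 250 bases before a RefSeq start in GRCm38.p6, held the E-box form CAGCTG or a CArG box. The motifs were searched on both strands. All 8 genes matched, with 10 windows. Capitals mark an E-box (CANNTG, the site of the MyoD family) or a CArG box, the site of serum response factor. The windows of Myl1, Myl4 and Mylpf lie wholly within their gene, past an earlier start. For Myl1 and Mylpf only 30 bases around the E-box are shown, and the Myl4 window, without an E-box, is not shown. That of Myl9 is shown up to the first annotated start.
Myl1, chr1:66945263-66945292, minus strand: aggtacgtctgtCAGCTGtcaccaaaccaa
Mylpf, chr7:127211545-127211574, plus strand: cttcctgggctcCAGCTGctgcaggcctcc
Myl3, chr9:110763428-110763677, plus strand: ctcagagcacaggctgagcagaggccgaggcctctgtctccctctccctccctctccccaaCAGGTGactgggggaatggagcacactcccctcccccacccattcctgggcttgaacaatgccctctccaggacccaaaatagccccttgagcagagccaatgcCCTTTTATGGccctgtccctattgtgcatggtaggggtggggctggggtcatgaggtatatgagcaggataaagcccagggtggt
Myl9, chr2:156775214-156775407, plus strand: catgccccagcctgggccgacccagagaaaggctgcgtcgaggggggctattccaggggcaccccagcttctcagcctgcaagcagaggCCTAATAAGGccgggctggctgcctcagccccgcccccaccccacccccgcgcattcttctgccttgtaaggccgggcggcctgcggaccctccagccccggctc

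The E-box started 224 bases before the start of Myl1, 51 before that of Mylpf and 189 before that of Myl3. The CArG box started 161 bases before the start of Myl9 and 85 before that of Myl3. CANNTG occurred in 7 of the 10 member windows and in 66.2% of all 32851 promoter windows of this length. The form CAGCTG, a subset of CANNTG, occurred in 3 member windows (Myl1, Mylpf and 1 of 2 for Myl2) and in 13.0% of all. A CArG box occurred in 3 member windows (Myl3, Myl9 and 1 of 2 for Myl6) and in 1.5% of all, and a MEF2 motif in 0 member windows and in 2.9% of all. The Myl4 window held none of these. A match is a run of letters and does not show binding.

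The 12 signals of each probe are shown in the plot of log2 signal by array, on the scale used for every value below unless named otherwise: log2 of the processed signal minus the array's 75th percentile.

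**Figure D1:**
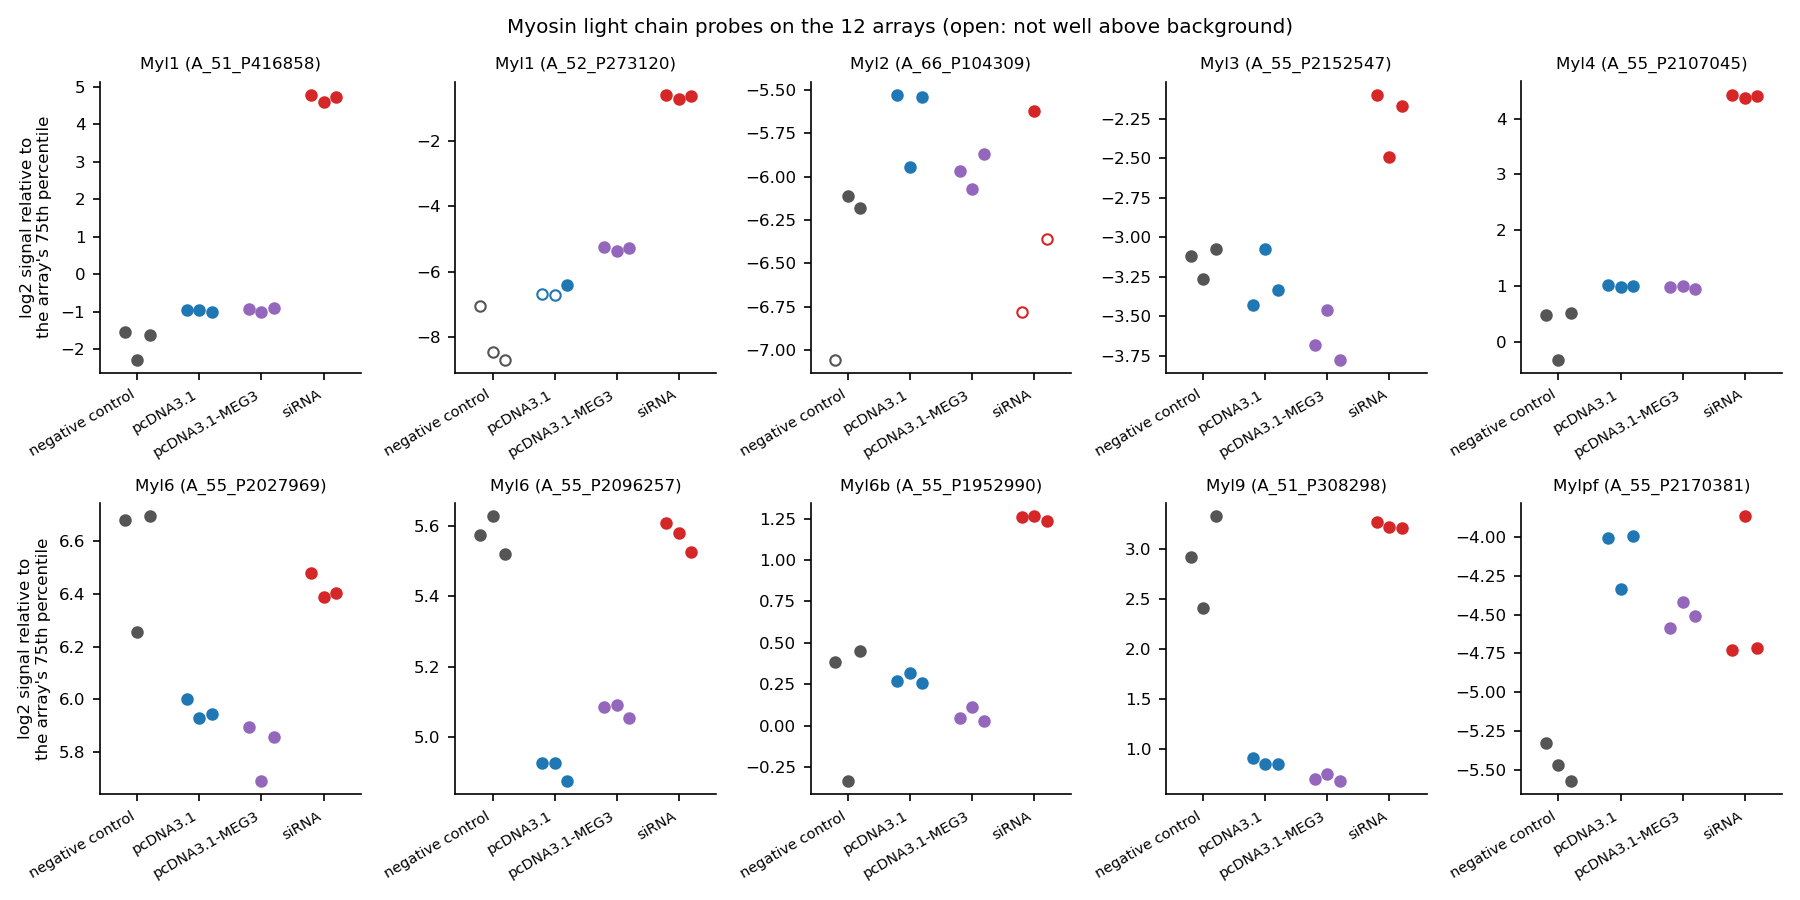
Log2 signal relative to the array's 75th percentile (y axis) for the 10 light chain probes on the 12 arrays (x axis, 3 points per group in replicate order 1, 2, 3; filled points well above background, open points not; each panel has its own axis range). On the siRNA arrays both Myl1 probes and the Myl4 probe lie far above the other 3 groups, and Myl9 falls into a low pair of plasmid groups and a high pair of the other groups.

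Knockdown arrays were set against the negative control first. In this contrast 4 of 8 light chains rose and 0 fell at an adjusted p under 0.05 (limma's moderated test, Benjamini-Hochberg over all genes tested), against 12.4% of the 24527 genes tested (7.77% higher and 4.66% lower). The 4 were the essential chains Myl1, Myl4, Myl6b and Myl3. The median log2 difference was 1.02 over the 8 members and 0.06 over all genes tested. In bulk RNA, a larger share of cells that express a gene and more of its RNA per cell cannot be told apart.

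Myl1, the fast skeletal essential chain, gave processed signals of 445, 467 and 397 on the negative control arrays and of 33107, 30449 and 30764 on the siRNA arrays. On the log2 scale these were -1.53, -2.28 and -1.62 against 4.79, 4.58 and 4.72. The groups did not overlap, and every siRNA array lay far above every other array. Group means were -1.93 ± 0.50 and 4.67 ± 0.12 (SD, n = 2), a log2 difference of 6.59 (SE 0.24, 95% interval 5.99 to 7.19, adjusted p = 0.000315), or 96.6-fold. The second Myl1 probe (A_52_P273120, which carries the accession of another Myl1 transcript) exceeded background clearly on 0 of 3 arrays in the negative control and on all 3 siRNA arrays, where it stood at -0.59, -0.73 and -0.62. By that probe Myl1 was at least 64.9-fold higher (adjusted p over all kept probes = 0.000247), a bound set by the dimmest signals well above background on the negative control arrays.

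Myl4, the embryonic and atrial essential chain, stood at 0.48, -0.31 and 0.52 on the negative control arrays and at 4.43, 4.37 and 4.40 on the siRNA arrays. The lowest siRNA array was far above the highest negative control array. The log2 difference was 4.30 (SE 0.27, 95% interval 3.64 to 4.95, adjusted p = 0.00101), or 19.6-fold. Myl1 and Myl4 passed the test under each of the 17 other processing settings run for this contrast, with log2 differences of 6.24 to 7.04 for Myl1 and 3.89 to 4.70 for Myl4. Their highest adjusted p was 0.0337 and 0.0446.

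Smaller rises were measured for Myl6b and Myl3. Myl6b stood at 0.38, -0.33 and 0.45 in the negative control and at 1.26, 1.26 and 1.24 in the siRNA group, with no overlap and with negative control replicate 2 the lowest array. Its log2 difference was 1.21 (SE 0.25, adjusted p = 0.0342), or 2.32-fold. Myl3, the slow and ventricular essential chain, stood at -3.12, -3.26 and -3.07 in the negative control and at -2.10, -2.49 and -2.17 in the siRNA group. Its groups did not overlap either, and its log2 difference was 0.87 (SE 0.20, adjusted p = 0.0470), or 1.83-fold. Both calls lie near the threshold. That of Myl3 was lost under 9 of 17 other settings and that of Myl6b under 6, with no change of direction. Without 1 sample the adjusted p of Myl3 was 0.0508 (without negative control replicates 1 and 3), 0.0807 (without negative control replicate 2) and 0.138 (without siRNA replicates 1 and 3), and that of Myl6b was 0.0791 without siRNA replicates 1 and 3 and 0.0520 without siRNA replicate 2.

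The 3 regulatory chains and Myl6 did not pass this test. Mylpf, the fast skeletal regulatory chain, stood at -5.33, -5.47 and -5.58 in the negative control and at -4.73, -3.86 and -4.71 in the siRNA group, where replicate 2 was above the other pair. Although the groups did not overlap, its log2 difference of 1.17 (SE 0.30, 95% interval 0.44 to 1.90) had an adjusted p of 0.0562. Without siRNA replicates 1 and 3 the difference of Mylpf was 1.60 with an adjusted p of 0.0157, and without siRNA replicate 2 it was 0.74 with an adjusted p of 0.0685. Myl9 differed by 0.46 (95% interval -0.13 to 1.06, adjusted p = 0.270), with overlapping groups. Without negative control replicates 1 and 3 the difference of Myl9 was 0.82 with an adjusted p of 0.00594, and without negative control replicate 2 it was 0.11 with an adjusted p of 0.354.

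Myl6, the essential chain of smooth and non-muscle myosin, had among the highest signals of these arrays (98799 to 173299 on the arrays of both groups). Its log2 difference was -0.06 (95% interval -0.51 to 0.39, adjusted p = 0.878), and the second Myl6 probe gave -0.01 (adjusted p over all kept probes = 0.958). Myl2 was dim, above background on 2 of 3 arrays in the negative control and 1 of 3 in the siRNA group, with a log2 difference of 0.27 (SE 0.36, adjusted p = 0.689). The siRNA arrays of Myl2 ran from -6.78 to -5.62 and spanned most of the range of the gene.

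Of 10 genes for sarcomeric heavy chains, the partners of these light chains, 6 could be tested and 4 rose, with 0 lower. Myh3, the embryonic heavy chain, rose by 7.05 (SE 0.44, adjusted p = 0.00103). The fast chain gene Myh1 rose 63.7-fold (adjusted p = 0.000315, with 1 of 3 negative control arrays above background). The perinatal Myh8 rose by 5.10 (adjusted p = 0.000405, with 2 of 3 above) and the slow Myh7 by 2.33 (adjusted p = 0.000986). Of the non-muscle and smooth heavy chains 3 of 4 could be tested and 0 passed. Of the myosin chaperones and binding proteins 6 of 12 rose and 1 fell. They included the M-band gene Myom3 (5.46, adjusted p = 0.000533, with 1 of 3 negative control arrays above background), the myosin-binding Mybph (3.15, adjusted p = 0.00197) and the chaperone Unc45b (3.00, adjusted p = 0.00346). The histone methyltransferase gene Smyd1, whose product also assists myosin folding, fell by 0.89 (adjusted p = 0.0333).

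Among the other light chains 2 of 5 could be tested, and the non-muscle regulatory chain Myl12b rose by 0.80 (adjusted p = 0.0175) while Myl12a did not pass. Of the light chain kinases and phosphatase genes 13 of 17 could be tested, and only the skeletal kinase Mylk2 passed (1.19 higher, adjusted p = 0.0159). Of 9 myogenic factors 5 rose and 2 fell. Myog, which drives terminal differentiation, rose by 3.47 (adjusted p = 0.000405) and Myod1, the myoblast determination factor, by 2.29 (adjusted p = 0.0157). Myf5, a factor of early myoblasts, fell by 2.86 (adjusted p = 0.00702). All 8 myotube markers were higher, and their summed level, in units of the 75th percentile signal, ran from 23.6 to 25.0 on siRNA arrays and from 7.12 to 8.70 on negative control arrays. Acta1 had the largest share of both myotube sums, at means of 3.58 and 2.86. The cardiac list, with 3 of 8 markers higher (Tnnt2, Ryr2 and Nkx2-5) and 5 not passing, summed to 10.7 to 11.3 against 1.45 to 1.83. Most of the siRNA sum came from Tnnt2 alone, at a mean of 3.24 there and -0.46 in the negative control. The next brightest cardiac marker on siRNA arrays, Gata4, was at 0.01. The part of these cell states in the light chain values was not tested.

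**Figure D2:**
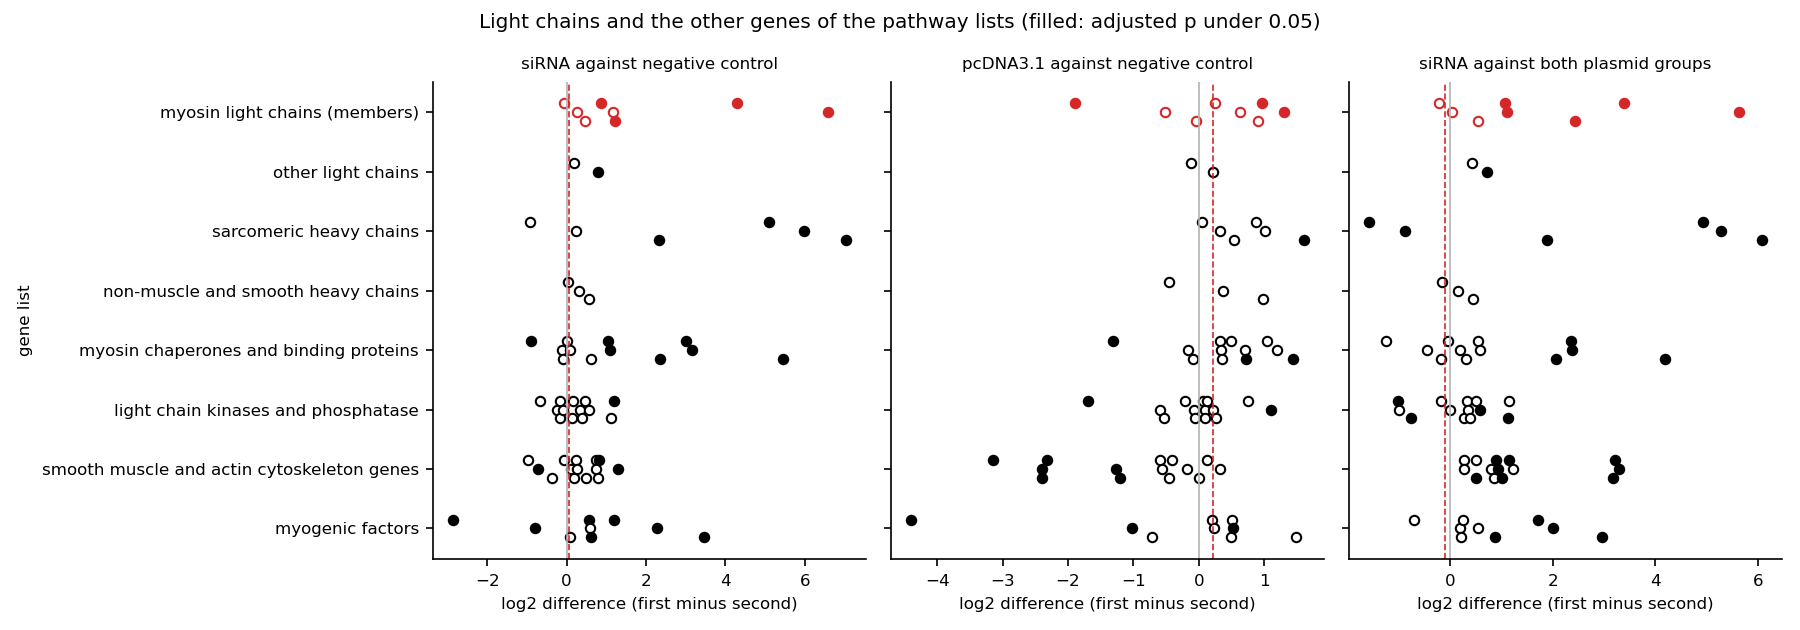
Log2 difference (x axis) of each tested gene of the 8 light chains (red) and of 7 other gene lists (black, y axis) in 3 contrasts; filled points have an adjusted p under 0.05, the grey line is 0 and the dashed line the median of all genes tested. Against the negative control, siRNA arrays have Myl1 at 6.59 beside Myh3 at 7.05, and arrays labelled pcDNA3.1 have Myl9 at -1.90 beside Tagln at -3.14.

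Overexpression was set against its plasmid by the arrays labelled pcDNA3.1-MEG3 and pcDNA3.1. In this contrast 0 of 8 light chains passed the test, against 0.00814% of the 24565 genes tested (2 genes by limma; 2497 genes had an unadjusted p under 0.05). Log2 differences of the 8 members lay between -0.37 for Myl3 and 0.01 for Myl1, with a median of -0.19 beside -0.16 over all genes tested. Their 95% intervals reached from -1.14 at the lowest to 0.64 at the highest, so larger differences than these are not covered by the data and smaller ones are not told from 0.

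Myl1 stood at -0.95, -0.95 and -1.02 on arrays labelled pcDNA3.1 and at -0.92 and -0.91 on replicates 1 and 3 labelled pcDNA3.1-MEG3, with its replicate 2 the lowest of these. Myl4 stood at 1.02, 0.99 and 1.00 against 0.99, 1.01 and 0.95. Both groups of each gene overlapped. For Myl2, Myl3, Myl6, Myl6b, Myl9 and Mylpf the mean was lower on arrays labelled pcDNA3.1-MEG3, by 0.15 to 0.37. None passed the test, and the median of all genes tested was itself at -0.16. The groups of Myl2 overlapped and those of Myl3, Myl6, Myl6b, Myl9 and Mylpf did not. How many of all genes lacked overlap was not counted. The second Myl6 probe lay the other way, also without overlap, 0.17 higher on arrays labelled pcDNA3.1-MEG3 (adjusted p over all kept probes = 0.612).

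The second Myl1 probe is near background in this contrast. It stood at -6.68, -6.72 and -6.41 on arrays labelled pcDNA3.1, where 1 of 3 was well above background, and at -5.26, -5.38 and -5.28 on arrays labelled pcDNA3.1-MEG3, where 3 of 3 were. The groups did not overlap. The measured difference of 1.31 (SE 0.22, adjusted p over all kept probes = 0.147) did not pass. With the dim arrays set to the lowest signal well above background, the difference between the means was 2.08-fold. That value is a point estimate and not a lower limit, since the difference did not pass. Within the first scan the difference was 1.38 with 2 arrays per group and within the second 1.13 with 1 array per group, both against the dim group, and the brighter probe gave -0.01 and 0.11. These probes carry the accessions of different Myl1 transcripts, and the probe sequences were not analysed here.

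Arrays labelled pcDNA3.1 were then set against the negative control. In this contrast 2 of 8 light chains were higher, Mylpf and Myl1, and 1 was lower, Myl9. Of the 24563 genes tested, 17.9% passed (11.3% higher and 6.64% lower; centring on the median in place of the 75th percentile gave 1516 higher and 1748 lower in place of 2774 and 1632). The median difference was 0.44 over the members and 0.22 over all genes tested. With centring on the median the latter was 0.08. Under it Myl9 stayed lower and called, while Myl1 at 0.82 (adjusted p = 0.112) and Mylpf at 1.16 (adjusted p = 0.0537) were no longer called. The 2 groups were scanned apart, so scan and group cannot be told apart here either.

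Myl9, the smooth muscle regulatory chain, stood at 2.92, 2.41 and 3.33 on the negative control arrays, at 0.91, 0.85 and 0.85 on arrays labelled pcDNA3.1 and at 0.70, 0.75 and 0.68 on arrays labelled pcDNA3.1-MEG3. On the siRNA arrays Myl9 stood at 3.27, 3.22 and 3.21. Both plasmid groups were low, and the negative control and siRNA groups were high and overlapped each other. Against the negative control, Myl9 was 3.72-fold lower on arrays labelled pcDNA3.1, a log2 difference of -1.90 (SE 0.24, 95% interval -2.49 to -1.31, adjusted p = 0.00797). Its direction held under all 17 other settings, with log2 differences of -2.25 to -1.54. Its adjusted p was 0.0678 without pcDNA3.1 replicates 1 and 3 and 0.207 where arrays were averaged wherever they differed by less than the spot noise, which leaves 1 sample in each plasmid group.

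Mylpf stood at -4.00, -4.33 and -3.99 on arrays labelled pcDNA3.1, above each of the negative control arrays (-5.33, -5.47 and -5.58). The difference was 1.30 (SE 0.30, adjusted p = 0.0355), or 2.46-fold. Myl1 differed by 0.96 (SE 0.24, adjusted p = 0.0466), or 1.95-fold, with no overlap. Both calls lie near the threshold: that of Mylpf was lost under 10 and that of Myl1 under 9 of 17 other settings, with the direction kept. Without 1 sample, the adjusted p of Mylpf was 0.0695 without negative control replicates 1 and 3, 0.0823 without negative control replicate 2 and 0.188 without pcDNA3.1 replicates 1 and 3, and the call was lost without pcDNA3.1 replicate 2 too, and that of Myl1 was 0.192 and 0.176 without either pcDNA3.1 sample.

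Myl4 and Myl6 missed the threshold in this contrast, Myl4 at 0.91 (SE 0.27, adjusted p = 0.0664) and Myl6 at -0.52 (SE 0.18, adjusted p = 0.102). Without negative control replicates 1 and 3 the difference of Myl4 was 1.32 (adjusted p = 0.00251), and without negative control replicate 2 it was 0.50 (adjusted p = 0.0155). The second Myl6 probe was lower by 0.67 (SE 0.12, adjusted p over all kept probes = 0.0206), with negative control arrays at 5.57, 5.63 and 5.52 and arrays labelled pcDNA3.1 at 4.93, 4.93 and 4.88. For the brighter Myl6 probe negative control replicate 2 lay apart, at 6.26 beside 6.68 and 6.69, and without it the difference was -0.73 with an adjusted p of 0.0159. Without negative control replicates 1 and 3 it was -0.30 with an adjusted p of 0.0958. Myl2, Myl3 and Myl6b did not pass, with differences of 0.62, -0.05 and 0.25. Without negative control replicates 1 and 3 that of Myl6b was 0.62 with an adjusted p of 0.00936, and without negative control replicate 2 it was -0.13 with an adjusted p of 0.292.

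Of 15 genes of smooth muscle and the actin cytoskeleton 14 could be tested, and 6 were lower, 0 higher and 8 did not pass when arrays labelled pcDNA3.1 were set against the negative control. Tagln, an actin-binding protein of smooth muscle, was lower by 3.14 (SE 0.22, adjusted p = 0.00123), the smooth muscle actin Actg2 by 2.40 (adjusted p = 0.00705) and the actin-binding Cnn1 by 2.33 (adjusted p = 0.00402). Cnn2 and Tpm2 were lower by 1.20 and 1.27. Lmod1, above background on all negative control arrays but on 0 of 3 labelled pcDNA3.1, is the other of the 6; it passed the filter on dim probes only through the negative control, where it was high, so its call gives no support. The smooth muscle marker list, of which all but Myh11 are also in this list, summed to 112 to 186 on the negative control arrays, 84.0 to 91.3 and 63.8 to 66.6 on arrays labelled pcDNA3.1 and pcDNA3.1-MEG3, and 155 to 166 on the siRNA arrays. Most of these sums came from Acta2, at a mean of 6.87 in the negative control and 6.41 on arrays labelled pcDNA3.1, which did not pass. Myh11, the smooth muscle heavy chain that defines the mature cell type, was well above background on 0 of 12 arrays. The part of these markers in the Myl9 value was not tested.

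In the same contrast 1 of 6 tested sarcomeric heavy chains was higher, the cardiac Myh6 by 1.61 (adjusted p = 0.0117), and 0 were lower. Among the kinase and phosphatase genes the cardiac kinase Mylk3 was higher by 1.11 (adjusted p = 0.0196) and the calmodulin gene Calm3, whose product activates the kinases, was lower by 1.69 (adjusted p = 0.0256). Of the chaperones and binding proteins 2 were higher (Myom3 and Mybpc2) and Smyd1 was lower. Myf5 was lower by 4.40 (adjusted p = 0.00181), with 2 of 3 arrays labelled pcDNA3.1 above background. Myotube markers were split: 3 of 8 were higher, 1, Acta1, was lower and 4 did not pass. Their summed level was 2.22 to 2.39 on arrays labelled pcDNA3.1. Most of the negative control sum came from Acta1, at a mean of 2.86 there and -0.20 on arrays labelled pcDNA3.1. The other myotube markers had higher means on arrays labelled pcDNA3.1 than in the negative control. The part of this in the Myl1 and Mylpf values was not tested.

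The siRNA arrays were set last against both plasmid groups together. This contrast shares its siRNA arrays with the first and its pcDNA3.1 arrays with the third, so it is not independent of them. Of the 8 light chains 5 were higher on the siRNA arrays (Myl1, Myl4, Myl9, Myl3 and Myl6b) and 0 lower, against 18.7% of the 24523 genes tested (10.6% higher and 8.12% lower; 2593 and 1991 genes, against 2802 and 1399 with centring on the median and 3501 and 1600 with quantile scaling). The median difference was 1.09 over the members and -0.11 over all genes tested. The siRNA and plasmid arrays were scanned apart.

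Myl1 was 49.5-fold higher on the siRNA arrays (5.63, SE 0.21, adjusted p = 0.00012) and Myl4 10.5-fold (3.39, SE 0.23, adjusted p = 0.000746). Myl9 was 5.41-fold higher (2.44, SE 0.21, 95% interval 1.92 to 2.95, adjusted p = 0.00152), with siRNA arrays at 3.21 to 3.27 and all 6 plasmid arrays at 0.68 to 0.91. Myl3 was 2.15-fold higher (SE of the log2 difference 0.18, adjusted p = 0.0117) and Myl6b by 1.07 (SE 0.22, adjusted p = 0.0236). Where arrays were averaged below the spot noise, the adjusted p of Myl4 was 0.0568, of Myl9 0.0822, of Myl3 0.167 and of Myl6b 0.252. The call of Myl6b was lost without any 1 of the 6 samples (adjusted p = 0.0576 to 0.0868), and that of Myl3 without pcDNA3.1-MEG3 replicates 1 and 3 (adjusted p = 0.0535).

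Myl6 missed the threshold at its brighter probe (0.55, SE 0.16, adjusted p = 0.0633) and passed it at the second (0.58, SE 0.11, adjusted p over all kept probes = 0.0180), both with no overlap between groups. Mylpf differed by 0.03 (95% interval -0.60 to 0.66, adjusted p = 0.936): its siRNA replicates 1 and 3 were below all 6 plasmid arrays and siRNA replicate 2 was above all 6. Myl2 differed by -0.23 (adjusted p = 0.606).

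Of the 6 sarcomeric heavy chains tested in this contrast 4 were higher and 2 lower. Myh3 was higher by 6.09 (adjusted p = 0.000596), Myh8 by 4.93 (adjusted p = 0.000121) and Myh7 by 1.88 (adjusted p = 0.000675). Myh1 was 38.7-fold higher (5.27, SE 0.19, adjusted p = 0.000119), though above background on none of the pcDNA3.1 arrays. The cardiac Myh6 was lower by 0.88 (adjusted p = 0.0345), and the other lower call was Myh7b, which passed the filter on dim probes only through the plasmid groups, where it was high, so its call gives no support. Of the 14 smooth muscle and actin genes tested 8 were higher, led by Actg2 (3.30, adjusted p = 0.00107), Cnn1 (3.21, adjusted p = 0.000578) and Tagln (3.17, adjusted p = 0.000514), and 0 lower. Of the 13 kinase and phosphatase genes tested 2 were higher and 2 lower. Mylk2 was among the higher (1.12, adjusted p = 0.00812), and Dapk3 (-1.02, adjusted p = 0.0448) and Mylk3 (-0.77, adjusted p = 0.0317), both light chain kinases, were lower. Myl12b was again higher, by 0.71 (adjusted p = 0.0109).

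Markers of cell types moved in this contrast too. Of the myotube markers 7 of 8 were higher on siRNA arrays, with sums of 23.6 to 25.0 against 2.22 to 2.82 over the plasmid arrays. Acta1 had the largest share of the siRNA sum, at a mean of 3.58. Of the myoblast markers 4 of 7 were higher (40.4 to 42.0 against 22.7 to 24.6) and of the fibroblast markers 3 of 6, Col1a1, Dcn and Lum (376 to 410 against 251 to 300.2). The part of these markers in the light chain values was not tested.

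**Figure D3:**
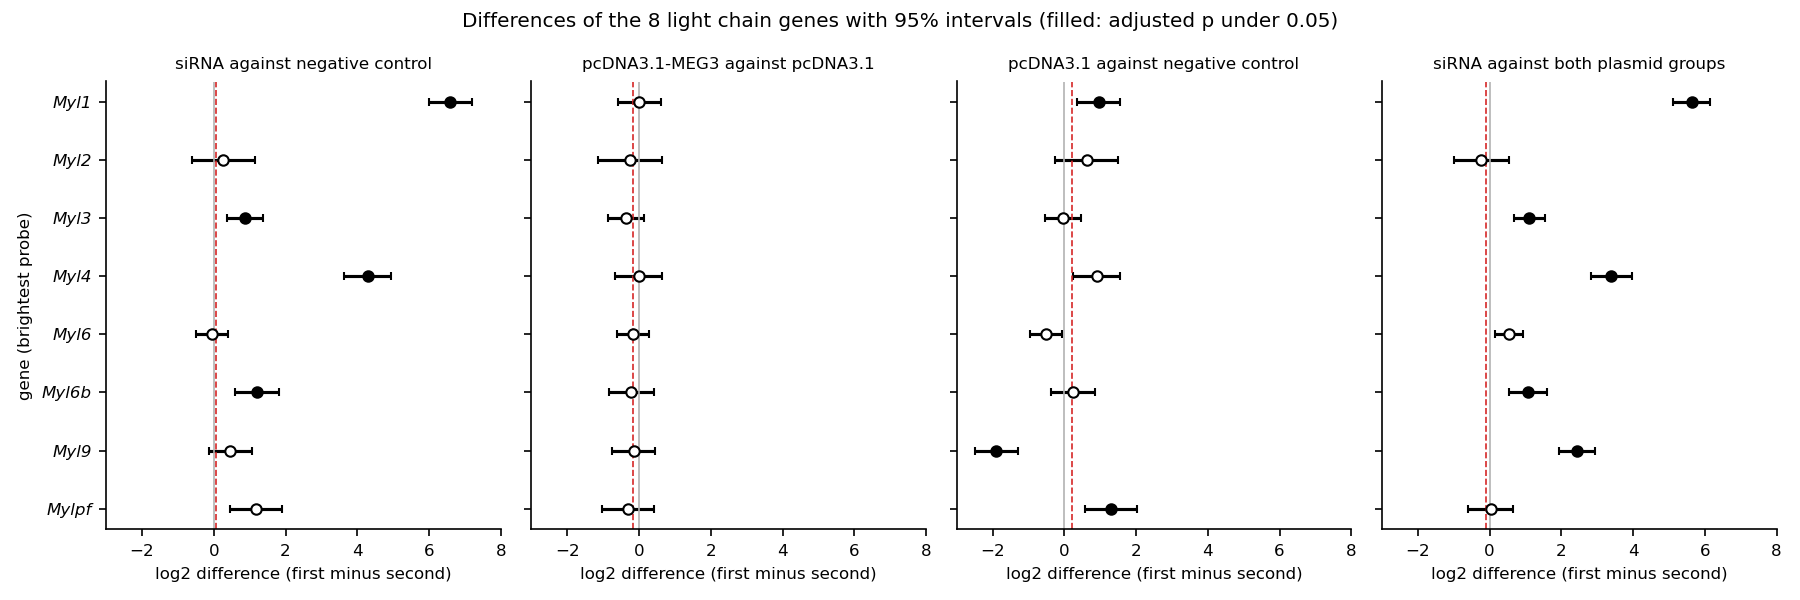
Log2 difference (x axis, first group minus second) of the 8 light chain genes (y axis) at their brightest probe in the 4 contrasts, with 95% intervals from limma; filled points have an adjusted p under 0.05, the grey line is 0 and the dashed line the median of all genes tested. Myl1 and Myl4 stand apart in both siRNA contrasts at 6.59 and 4.30 and at 5.63 and 3.39, Myl9 is at -1.90 in the third, and no member is filled in the second.

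Set side by side across the 4 groups, the light chains took different orders. Myl1 at its brighter probe and Myl4 were highest in the siRNA group, lower in both plasmid groups, which overlapped, and lowest in the negative control. Between the negative control and pcDNA3.1 the call of Myl1 lay near the threshold and Myl4 missed it. At the second Myl1 probe, which was near background there, the plasmid groups did not overlap, and neither did they for Myl3, Myl6, Myl6b, Myl9 and Mylpf. Myl9 and both Myl6 probes were high in the siRNA and negative control groups, which overlapped for Myl9 and Myl6, and low in both plasmid groups. Myl3 and Myl6b were highest in the siRNA group, with the negative control overlapping the arrays labelled pcDNA3.1. Mylpf was lowest in the negative control, and its siRNA arrays overlapped both plasmid groups. Myl2 overlapped between most groups and gives no order.

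The genes whose levels were most like a member's over the 8 samples were ranked by Pearson's r, given here as a description, since the samples are 4 groups of 2 and any gene that separates the same groups scores high. For Myl1 they were a probe without a reference symbol (A_55_P2145656, r = 0.999), Tnnc2 (0.998), Myh3 (0.998), Mymx (0.997) and Actc1 (0.996), of which Tnnc2 is the fast troponin C, Mymx a fusion factor of myoblasts and Actc1 the cardiac actin of embryonic muscle. For Myl4 they were Msrb2 (0.999), Neurl1a (0.998), Actc1 (0.997), Tnnc2 (0.997) and Dync1i1 (0.996). For Myl9 they were Actg2 (0.999), Klk1b27 (0.997), Kank1 (0.997), a transcript named only by its Ensembl entry (0.995) and Cys1 (0.995). For Mylpf they were 2 entries without a symbol (0.989 and 0.979), Afap1l1 (0.982), Cyp2b10 (0.981) and Thsd1 (0.980).

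**Figure D4:**
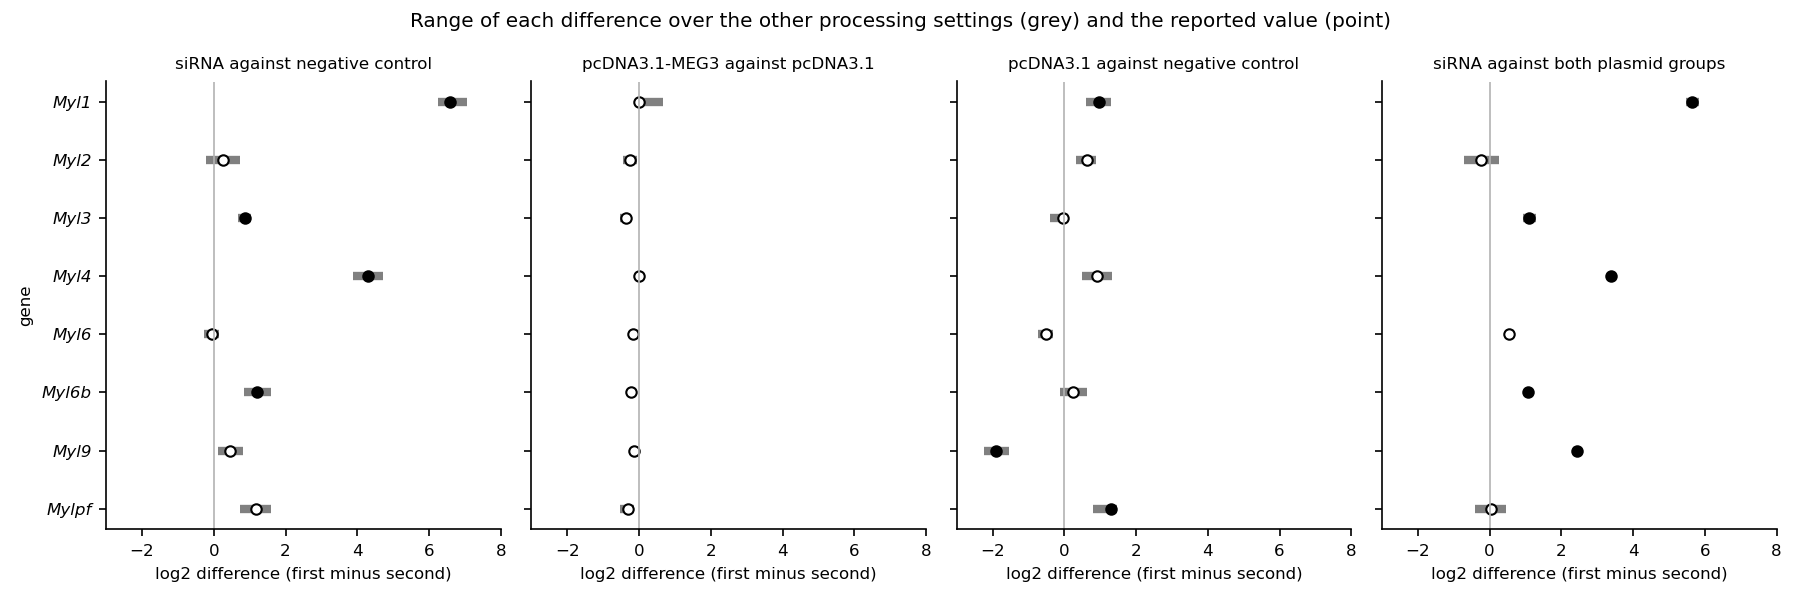
Reported log2 difference (points, filled where the adjusted p is under 0.05) of each light chain gene (y axis) in the 4 contrasts, with the lowest to highest value over the other processing settings run for it (grey bars, 17 to 19 settings). The bars of Myl1 and Myl4 in both siRNA contrasts and of Myl9 in the contrasts of pcDNA3.1 with the negative control and of siRNA with the plasmid groups stay on 1 side of 0, and those of Mylpf and Myl2 in the latter cross it.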

How the data were processed

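The members and gene lists were chosen with earlier results of these data known. The RNA carried Cy3, from a 1-colour Agilent kit, per the labels' protocols. Per the file headers, Feature Extraction 11.0.1.1 wrote a background-subtracted processed signal, a linear intensity that was not normalised between arrays, and flags of 0 or 1 for outlying and well above background spots; the headers name build mm9. The series table the authors deposited holds a linear intensity for 30732 probes (column medians 276 to 277; its rank correlation with the scanner signal was at least 0.99994). No source used here gives its scaling method.

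Spots marked outlying were left out, spots of a probe averaged, log2 taken and each array's 75th percentile subtracted. Accessions were matched to symbols in a RefSeq table of GRCm38.p6, used for names only (27234 of 39429 probes matched). Genes were represented by their brightest kept probe, which left 24573. Replicates 1 and 3 were averaged, and 1 fit over all 8 samples was made with limma 3.58.1 in R 4.3.3 (lmFit, eBayes; Benjamini-Hochberg over all genes; adjusted p under 0.05). Second probes were adjusted over all 29611 kept probes. With n = 2 per group the number of arrays limits the precision. Before use this fit was tested with known changes in simulated data, which took the probe means of these arrays and a preset spread. The fit was not tested at the spread of these arrays.

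Named genes were all members, Meg3, the called genes of each list with the largest changes or in counts of 5 or fewer, and the 5 genes most like Myl1, Myl4, Myl9 and Mylpf. The alternatives were other groupings of the arrays, other scalings, normexp (offset 50, on median signals since the planned mean signals were not in the columns used, with outlying local backgrounds replaced by the array's median, a choice made after seeing the data), the authors' table, no filter, other probe rules, and leaving out each sample. Same-numbered arrays of different groups did not deviate together (mean r of 0.01 for siRNA and negative control and -0.07 for the plasmid groups), so numbers were not taken as pairs. A result for 1 gene of the kinase and phosphatase list is not reported here.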

Additional observations from a re-analysis of the deposited data

How the results depend on the processing

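Over 32 pairs of a member and a comparison, 576 values were computed under other settings. Of 214 values for called members, 167 stayed called, 47 lost the call and 0 reversed; uncalled members gained a call in 28. Members called were 4, 0, 3 and 5 in the siRNA-control, MEG3-plasmid, plasmid-control and siRNA-plasmids contrasts, and genes called 3048, 2, 4406 and 4584.

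Taking 12 arrays as 12 samples called 9861, 3014, 12109 and 12765 genes and 5 members in the plasmid-control contrast and counts replicates 1 and 3 as separate samples. Adding the replicate block to those arrays called 9291, 2276, 11504 and 12374 genes and 5 members. The replicate numbers do not pair the samples. Under both, Mylpf was at -0.13 in the siRNA-plasmids contrast. Keeping the control as 3 samples called 4881 genes (siRNA-control) and 24 (MEG3-plasmid). A random block for averaged arrays, chosen after seeing the data, called 265 in the latter, and its first scan alone 1770. Averaging below the spot noise called 159, 0, 2 and 192 genes and 2, 0, 0 and 1 members. Groups compared alone called 159 genes and 2 members (siRNA-control), 1956 genes (MEG3-plasmid) and 9414 (siRNA-plasmids). Median centring called 2 members (siRNA-control) and 1 (plasmid-control), as did no filter, which called 1965 genes in the former; normexp called 1 member (plasmid-control). In the MEG3-plasmid contrast quantile scaling called 9 genes and normexp 11. The cause was not tested.

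Leaving out a sample gave 1952 to 7455, 0 to 0, 523 to 9188 and 1642 to 4872 genes, and 3 to 4, 0 to 0, 0 to 4 and 3 to 4 members. An arm left with 1 sample is assumed to vary like the other groups.

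Reversals were of uncalled values. In the MEG3-plasmid contrast Myl1 was at -0.0075 (median centring), -0.039 (quantile), -0.034 (authors' table), -0.012 (first scan) and -0.035 to 0.049 leaving out a sample; Myl4 was at 0.049 (quantile), 0.053 (authors' table) and -0.031 to 0.0078. In the siRNA-control contrast Myl6 was at 0.022 (quantile), 0.026 (normexp), 0.027 (authors' table) and -0.27 to 0.16 leaving out a sample, and Myl2 at -0.21 to 0.74. In the plasmid-control contrast Myl3 was at 0.0046 (normexp) and -0.20 to 0.11 leaving out a sample, and Myl6b at -0.13 to 0.62. In the siRNA-plasmids contrast Myl2 was at 0.27 (quantile), 0.16 (normexp), 0.25 (authors' table) and -0.70 to 0.24 leaving out a sample, and Mylpf at -0.40 to 0.46.

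With 2 samples a group, 1 cell line and scans that separate most groups, differences under about the intervals given cannot be told from 0. Myl2 and the second Myl1 probe lie near background.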
